A study of Mus musculus and Bos taurus with 26 samples.

Results

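The genes described here encode the proteins of the mitochondrial ribosome that carry the symbols Mrpl (large subunit) and Mrps (small subunit). They were taken by symbol alone, as Mrpl or Mrps followed by a number and at most 1 letter, with no use of measured values. Of 27988 mouse symbols 77 matched and 76 reached 1 FPKM (a level corrected for gene length and library size) in at least 2 of the 22 mouse libraries. The member that did not was Mrpl11, with a highest value of 0.892 FPKM. Of 21577 bovine symbols 78 matched and all 78 reached that level in the 4 bovine libraries. In all, 17336 mouse and 12590 bovine genes were tested.

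Embryo polyA RNA was profiled with 2 libraries in each of 13 groups. Mouse embryos received H2O, Hdac1 WT mRNA, Hdac1 mutant mRNA, Hdac2 WT mRNA or Hdac2 mutant mRNA by injection as zygotes and were collected as late 2-cell embryos 36 h after fertilization. The Hdac1 WT and Hdac1 mutant injections were also collected as early 2-cell embryos at 24 h. In 2 further late 2-cell groups the Hdac1 mutant zygote injection was followed at the early 2-cell stage by an injection of H2O or of Kdm5b mRNA into both blastomeres. Other mouse embryos were cultured in KSOM with DMSO or given 50 nM FK228 from the zygote stage on and collected at 36 h. Bovine embryos were kept in BO-IVC medium containing DMSO, or given 50 nM FK228 from the zygote stage on, and collected at the 8/16-cell stage at 72 h. Hdac1 and Hdac2 encode histone deacetylases, FK228 (romidepsin) inhibits such enzymes, and Kdm5b encodes a demethylase of histone H3. The mutations in the injected mRNA, the strain, the number of embryos per library and whether the libraries of a group came from separate cultures are not stated by the labels. The p-values below therefore rest on how far libraries of the same group lie apart, pooled over all groups of a species. That distance may be only technical.

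Mitochondria translate the few mRNAs of their own genome, which encode core subunits of the respiratory chain and of ATP synthase, on a ribosome of their own. The rRNAs of that ribosome come from mitochondrial DNA, but every one of its proteins is encoded in the nucleus, made in the cytosol and imported. Many of the proteins have counterparts in the bacterial ribosome, and the others are found only in mitochondria. The oocyte supplies the early embryo with mitochondria, and new transcripts of the nuclear genes become possible when the embryo's genome is activated, which in mouse happens mainly at the 2-cell stage and in cattle mainly at the 8/16-cell stage.

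Mouse libraries held 10704 to 14554 genes at 1 FPKM or more, and bovine ones 11598 to 12141. The injected genes followed the labels. Hdac1 was at 2707 and 2960.1 FPKM with Hdac1 WT and 4952 and 4612 with Hdac1 mutant late, against 92.2 and 89.3 with H2O; it was at 917 and 805 and 824 and 859 in the groups injected again with H2O or Kdm5b mRNA, so these carried less of it than the Hdac1 mutant group. Hdac2 was at 1775 and 1462 with Hdac2 WT and 2443 and 2292 with Hdac2 mutant, and Kdm5b at 594 and 638 after its injection against 61.3 and 73.97 after H2O. Replicates correlated across members with r from 0.83 (Hdac1 mutant late) to 0.972 (Hdac1 WT early), as a description of single pairs of libraries. The 7 markers of 2-cell embryos summed to 83.1 to 148 FPKM in early libraries. At the late stage they summed to 294 to 349 in Hdac1 mutant against 201 to 230 in Hdac1 WT libraries, to 325 to 349 in Hdac2 mutant against 153 to 197 in Hdac2 WT, to 322 to 362 with FK228 against 182 to 206 with DMSO, and to 406 to 419 after mutant then H2O and 340 to 352 after mutant then Kdm5b against 154 to 213 with H2O alone, without overlap in each pair. The 8 oocyte markers summed to between 2806 and 3141 FPKM in early and between 375 and 766 in late 2-cell libraries. Of 12 cumulus and granulosa markers at least 8 were above 0 in each group, with sums of 63.2 to 163 (102 to 122.6 with FK228 against 133 to 137 with DMSO, and 84.3 to 92.2 in Hdac1 mutant late against 75.02 to 83.2 in Hdac1 WT libraries), and the 7 sperm markers summed to at most 8.45. The 8 blood markers summed to 103 to 118 FPKM in Hdac1 mutant late libraries against 3.16 to 5.42 in Hdac1 WT, to 158 to 162 in Hdac2 mutant against 5.18 to 7.39 in Hdac2 WT, and to 168 to 186 with FK228 against 9.56 to 15.4 with DMSO. The alpha globin genes Hba-a1 and Hba-a2 and Cd74 made most of those sums, while the beta globin genes Hbb-bs and Hbb-bt were listed at 0 in all Hdac1 mutant late and Hdac2 mutant libraries and reached at most 0.332 with FK228. The part of these markers in the results below was not tested.

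Transcripts of the mitochondrial ribosomal proteins were a small share of the RNA, and they summed to less in FK228 embryos and in embryos given mutant Hdac1 or Hdac2 than in their controls at the late 2-cell stage. The 76 tested mouse members, without Mrpl11, together summed to 1639 ± 19.9 FPKM (SD, n = 2) in DMSO embryos and to 742 ± 14.7 with FK228. The sum was 1304 ± 171 with Hdac2 WT and 808 ± 14.5 with Hdac2 mutant. It was 1024 ± 3.91 with Hdac1 WT and 654 ± 36.0 with Hdac1 mutant at the late stage. In each of these 3 pairs of groups the libraries did not overlap. At the early stage the sum was 908 ± 87.9 with Hdac1 WT and 940 ± 9.75 with Hdac1 mutant, and the libraries overlapped. H2O-injected embryos stood at 1272 ± 21.3, Hdac1 mutant embryos injected again with H2O at 1011 ± 118 and those injected again with Kdm5b mRNA at 1201 ± 138. As a mean share of the summed FPKM of all genes, members made 0.438% with DMSO and 0.257% with FK228. The late shares were 0.363% with Hdac2 WT, 0.278% with Hdac2 mutant, 0.318% with Hdac1 WT and 0.242% with Hdac1 mutant. The sum over all genes was also lower in these FK228 and mutant libraries than in their controls, so the shares fell less than the member sums. In these bulk libraries less RNA per cell and a smaller share of some cells cannot be told apart, and FPKM do not show the amount of RNA per embryo.

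The leading genes differed between stages and groups. Mrps23, a protein of the small subunit found only in mitochondria, led both early groups, with 142 ± 7.29 FPKM after Hdac1 WT injection and 167 ± 32.0 after Hdac1 mutant injection, followed by Mrpl24 at 63.2 ± 3.02 and 66.3 ± 1.67. Exons of Rrnad1 on the opposite strand overlap 26.3% of the exon bases of Mrpl24, and reads there cannot be assigned to one of the pair. In late embryos of the control groups large subunit genes led: Mrpl34 and Mrpl20 with DMSO, at 101 ± 2.56 and 75.5 ± 2.34, and with H2O, at 71.0 ± 32.0 and 66.4 ± 8.22, where the pair differed by less than the spread of Mrpl34. Mrps24, Mrps11 and Mrps26, all of the small subunit, led with FK228 at 55.7 ± 13.4, 55.3 ± 6.76 and 40.4 ± 0.966, the first pair differing by less than their spread. The same 3 genes led in Hdac1 mutant late embryos, at 45.3 ± 4.91 for Mrps24, 39.4 ± 6.82 for Mrps26 and 37.6 ± 4.87 for Mrps11, again within their spread.

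**Figure D1:**
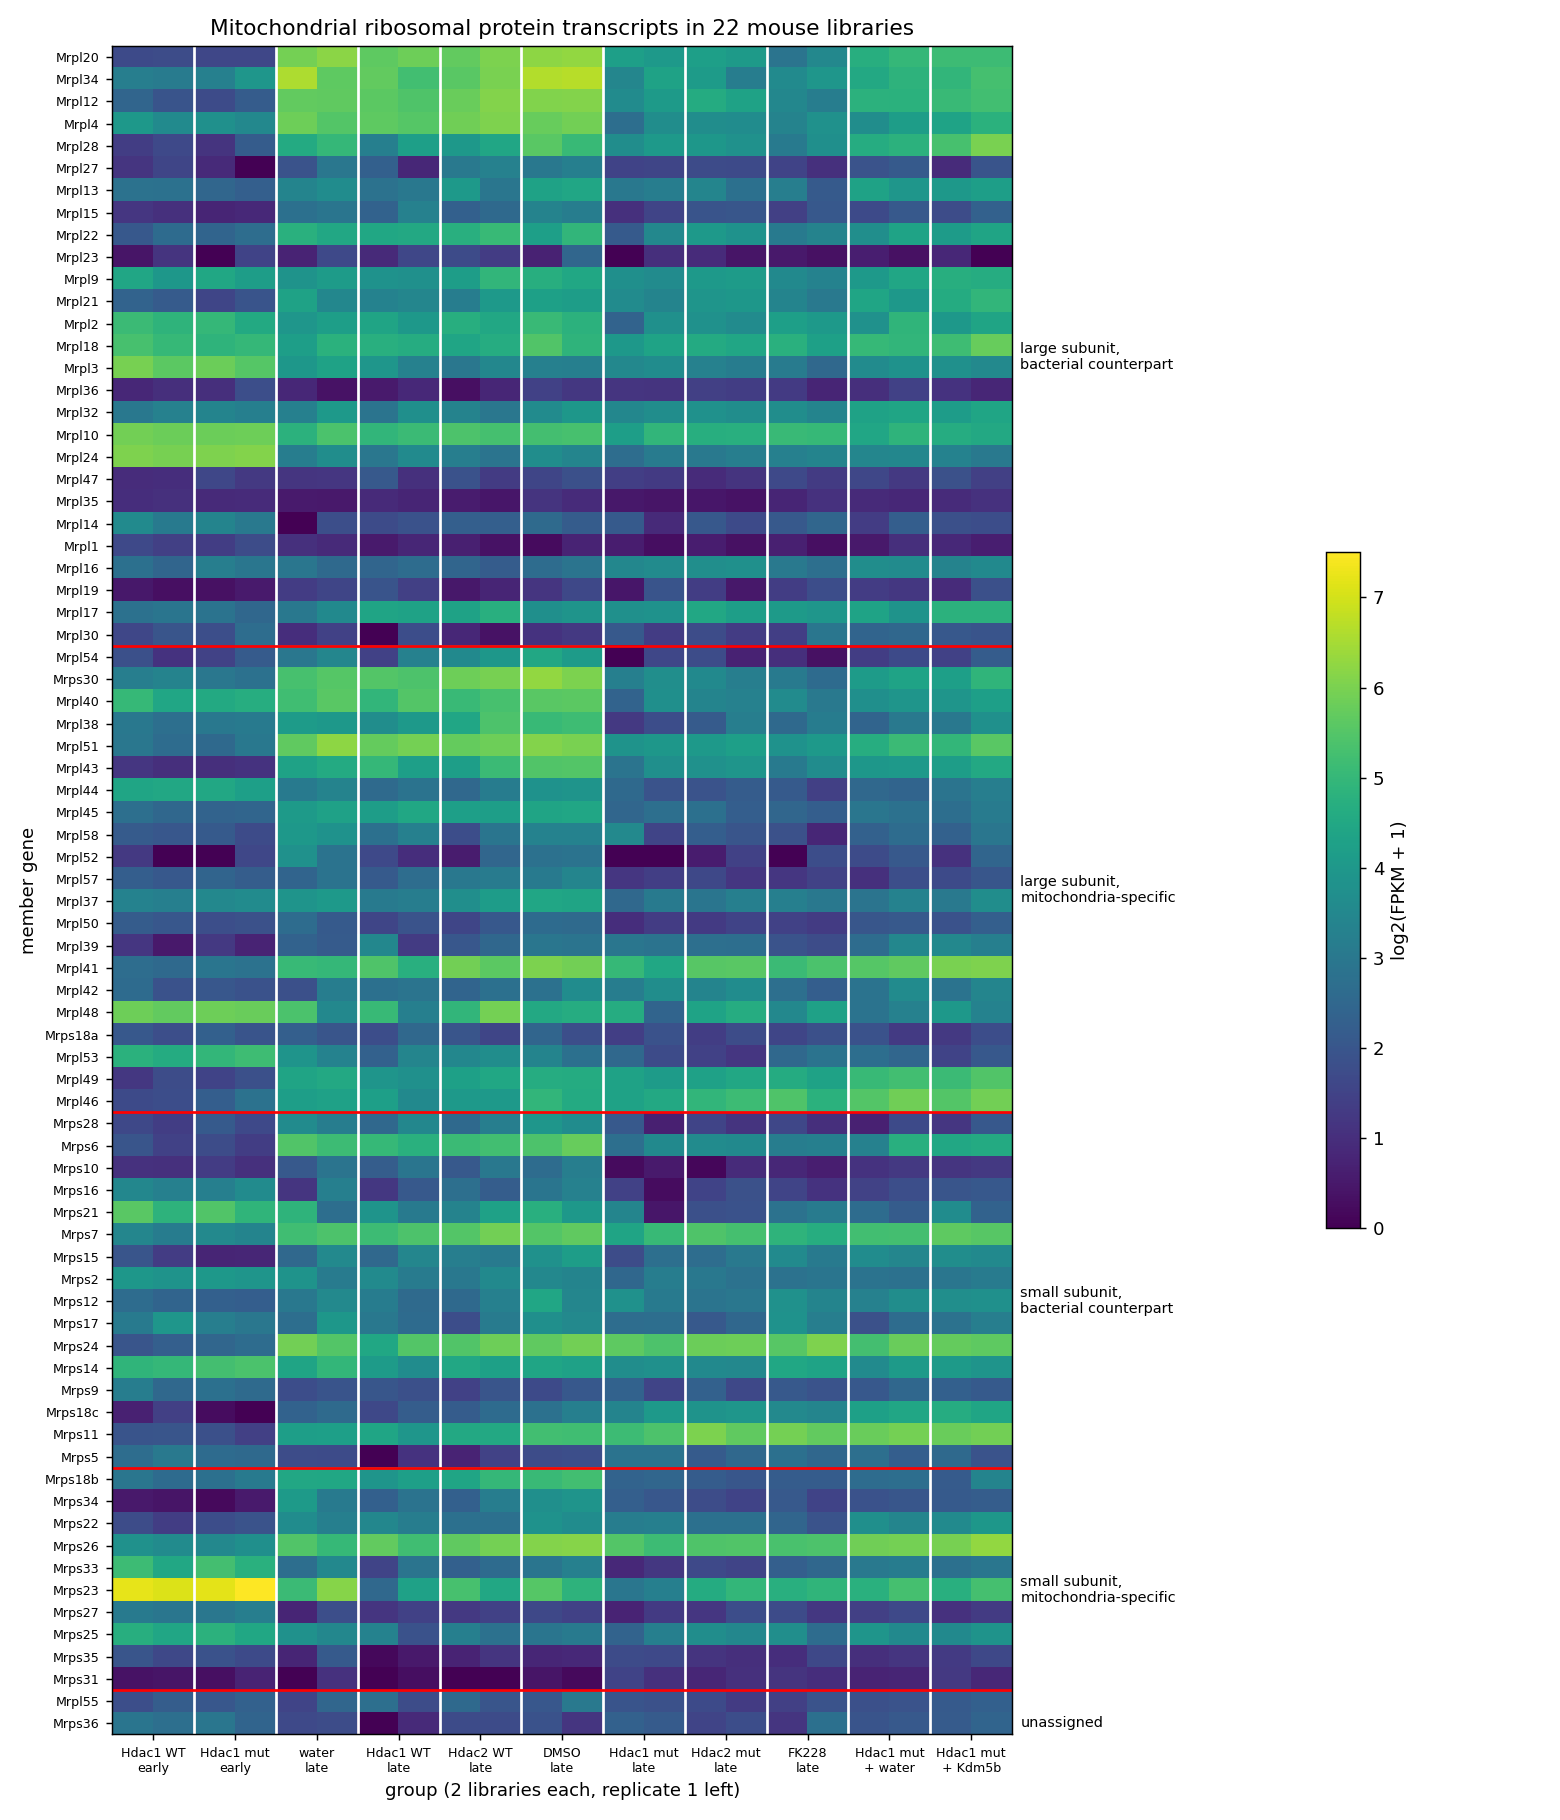
Level of each of the 76 tested mouse members, as log2(FPKM + 1), in 22 libraries (columns, 2 per group). Rows are grouped by subunit and origin and sorted within a group by the change with FK228, so the top rows of each block are bright in the control late groups (columns from water to DMSO) and darker in the mutant and FK228 groups, while Mrps23 and Mrpl24 are brightest in the early groups.

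Late 2-cell embryos given Hdac1 mutant mRNA had lower levels of some transcripts of both subunits than embryos given Hdac1 WT mRNA. Among these were Mrpl4, Mrpl38, Mrpl40 and Mrpl51 of the large and Mrps6 and Mrps10 of the small subunit. Fewer members were higher, such as Mrps5, Mrps18c and Mrps11 of the small and Mrpl16 of the large subunit. Of 76 members 23 were lower and 7 higher (limma on log2(FPKM + 1), adjusted p under 0.05 over all genes), a share of 30.3% and 9.21%, where 21.6% of all genes tested were lower and 30.5% higher. The median log2 fold change was −0.40 for the members and 0.17 for all genes. By symbol, of 47 Mrpl genes 16 fell and 1 rose, and of 29 Mrps genes, which include the large subunit members Mrps18a and Mrps30, 7 fell and 6 rose; the difference was not tested. A fit of only these 2 groups, with fewer libraries to estimate the spread, called 12 members lower and 7 higher.

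Among large subunit proteins with a bacterial counterpart, 8 of 27 fell and 1 rose (median −0.38). Mrpl4, which in ribosomes lines the exit tunnel (GRCm38 chr9:21002738-21008839, plus strand, protein coding), was at 5.54 and 11.8 FPKM in the Hdac1 mutant and at 48.9 and 44.8 in the Hdac1 WT libraries, a log2 fold change of −2.39 ± 0.27 (SE, adjusted p = 3.01e-06, limma). Both mutant libraries were far below both WT libraries. Mrpl12, the stalk protein that helps to recruit translation factors, was at 11.3 and 15.9 against 47.4 and 41.9 (−1.66 ± 0.20), and Mrpl22, at the tunnel exit, at 3.38 and 10.3 against 21.03 and 22.1 (−1.68 ± 0.36). Mrpl16, a protein near the tRNA sites, was the member that rose, at 10.2 and 11.3 against 4.46 and 5.26 (1.01 ± 0.19, adjusted p = 0.000383, limma), again without overlap.

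Of 21 large subunit proteins found only in mitochondria, 9 fell and 0 rose (median −0.62). Mrpl38 was at 1.36 and 2.41 FPKM against 11.8 and 15.3 (−2.35 ± 0.38), and Mrpl40 at 4.22 and 12.4 against 29.8 and 43.7 (−2.15 ± 0.34). Mrpl51 was at 13.3 and 14.8 against 52.3 and 59.5 (−1.92 ± 0.23), and Mrpl45, which lies at the tunnel exit and faces the inner membrane, at 4.61 and 5.74 against 17.1 and 21.3 (−1.71 ± 0.20). In each of these genes both mutant libraries were below both WT libraries. Mrps30, which despite its symbol sits in the large subunit (chr13:118378381-118387252, minus strand), was at 8.40 and 11.9 against 44.1 and 41.4 (−1.99 ± 0.22, adjusted p = 2.42e-06, limma). In the fit of only the compared groups Mrpl40 and Mrpl22 missed the threshold, at adjusted p = 0.0661 and 0.0959 (limma).

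Of 16 small subunit proteins with a bacterial counterpart 4 fell (25%) and 3 rose (18.8%), with a median of −0.33, and of 10 found only in mitochondria 2 fell and 2 rose (20% each), with a median of −0.21. The falling shares lie near the 21.6% of all genes lower, and the rising shares below the 30.5% higher. Mrps10, a protein of the small subunit head, was at 0.175 and 0.442 FPKM in the mutant and 3.63 and 6.51 in the WT libraries (−2.18 ± 0.35), and Mrps6 at 5.64 and 10.8 against 31.7 and 25.9 (−1.75 ± 0.36). Mrps28 stood at 3.28 and 0.589 against 4.77 and 10.1 (−1.62 ± 0.48), a call that was lost without Hdac1 mutant replicate 2 (adjusted p = 0.157, limma), without Hdac1 WT replicate 2 (0.107) and in the fit of only these groups (0.167). Among the members that rose, Mrps5, which sits near the entry of the mRNA channel, was at 6.23 and 6.27 FPKM in the mutant libraries and at 0 and 1.16 in the WT libraries, 1 of which listed it at 0 (2.30 ± 0.33, adjusted p = 2.96e-05, limma). Mrps11, a protein of the small subunit platform, was at 34.1 and 41.01 against 20.2 and 14.4 (1.09 ± 0.18, adjusted p = 9.4e-05, limma). The falls of Mrps10 and Mrps6 and the rises of Mrps5 and Mrps11 were without overlap between the groups. Mrps11 shares 173 exon bases with Mrpl46, its neighbour on the opposite strand, which is 8.0% of the exons of Mrps11 and 12.2% of those of Mrpl46; the sources used here describe no strand-marking step, so reads there cannot be assigned to one of the pair.

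Of 38 further genes of mitochondrial translation (subunits of the ribosome named otherwise, assembly factors and translation factors), 10 were lower (26.3%) and 7 higher (18.4%) in Hdac1 mutant embryos, where 21.6% of all genes were lower and 30.5% higher. Ngrn, needed for the stability of the large subunit rRNA, was at 3.56 and 7.30 FPKM against 24.1 and 26.3 (−2.09), Gadd45gip1, a large subunit protein named otherwise, at 3.15 and 2.71 against 8.59 and 10.5 (−1.43), and Ddx28, a helicase of large subunit assembly, at 3.37 and 4.95 against 13.3 and 11.5 (−1.39). Rbfa, a factor of small subunit maturation, was at 16.95 and 15.3 against 5.67 and 4.13 (1.55), and Fastkd2, an RNA-binding protein of large subunit assembly, at 9.43 and 5.10 against 2.57 and 1.66 (1.37). All 5 genes were called; Fastkd2 missed the threshold in the fit of only these groups (adjusted p = 0.0815, limma).

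**Figure D2:**
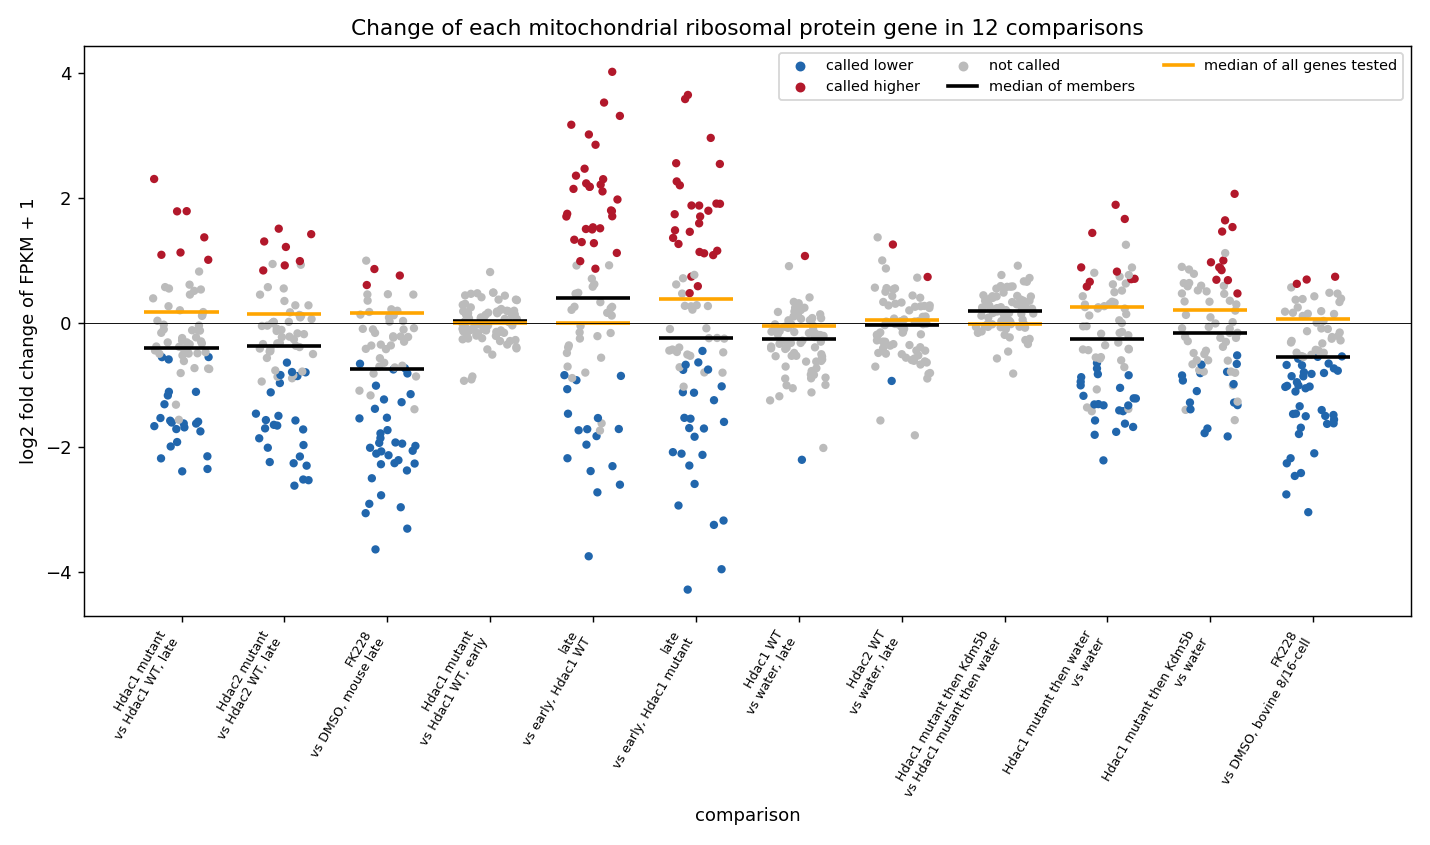
log2 fold change (log2(FPKM + 1) scale) of each tested member, 1 point per gene, in 12 comparisons of 2 groups, blue where called lower, red where called higher and grey where not called; black lines are member medians and orange lines medians of all genes tested. In the first 3 columns the black line lies below 0 and the orange line above it, the 2 stage columns reach farthest both ways, and the columns of early embryos and of Kdm5b against H2O after mutant Hdac1 are all grey.

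Mutant Hdac2 against WT Hdac2, 2 groups that share no library with the Hdac1 pair, gave 25 members lower and 7 higher (32.9% and 9.21%), where 22.2% of all genes were lower and 30.8% higher. The median log2 fold change was −0.38 for the members and 0.14 for all genes. The mitochondria-specific large subunit proteins had 11 of 21 members lower and 1 higher (median −0.80), and those with a bacterial counterpart 7 of 27 lower and 2 higher (median −0.39). In the small subunit 5 of 16 bacterial-type proteins were lower and 3 higher, and 2 of 10 mitochondria-specific ones lower and 1 higher.

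Mrps30 was at 10.9 and 8.27 FPKM in the Hdac2 mutant and 56.9 and 61.5 in the WT libraries (−2.52 ± 0.22, adjusted p = 1.97e-07, limma). Mrpl4 was at 11.8 and 11.6 against 57.7 and 65.6 (−2.30 ± 0.27). Mrpl54, a mitochondria-specific large subunit protein, was at 2.36 and 0.646 against 10.8 and 14.6 (−2.53 ± 0.58). These 3 genes were each lower in both mutant libraries than in either WT library, as were Mrpl38 (−2.24) and Mrpl53 (−2.26); 88.0% of the exon bases of Mrpl53 overlap a predicted gene on the same strand. Among the members that rose, Mrps11 was at 63.3 and 49.8 against 22.2 and 22.2 (1.30 ± 0.18), Mrpl16 at 12.01 and 12.5 against 4.48 and 3.50 (1.42 ± 0.19) and Mrpl46 at 29.7 and 34.3 against 15.7 and 15.6 (0.99 ± 0.26), all without overlap. Of the 7 higher calls 4 were made without Hdac2 mutant replicate 2, and 4 without Hdac2 WT replicate 1. Of the 38 further translation genes 8 were lower (21.1%, near the 22.2% of all genes) and 5 higher (13.2%, against 30.8%), with Gadd45gip1 at −2.08, Ngrn at −1.93 and Rbfa at 1.74; Tsfm, the exchange factor of the elongation factor Tufm, was at 6.87 and 15.03 FPKM against 3.37 and 3.78 (1.30), a call lost without Hdac2 mutant replicate 2 (adjusted p = 0.158, limma).

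FK228 against DMSO gave the most members lower of the 3 late comparisons: 35 of 76 (46.1%) were lower and 3 higher, where 26.3% of all genes were lower and 31% higher. The median was −0.74 for the members and 0.15 for all genes, and 31 of the 35 lower members were at least 2-fold lower on the log2(FPKM + 1) scale. Among mitochondria-specific large subunit proteins 14 of 21 were lower and 0 higher, with a median of −1.93. Of bacterial-type large subunit proteins 12 of 27 were lower and 0 higher (median −0.66), of bacterial-type small subunit proteins 5 of 16 lower and 2 higher (median −0.46), and of mitochondria-specific small subunit proteins 4 of 10 lower and 1 higher (median −0.54).

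Mrpl54 (chr10:81264713-81266934, minus strand) was at 1.01 and 0.255 FPKM with FK228 and 21.4 and 16.4 with DMSO (−3.64 ± 0.58, adjusted p = 6.2e-05, limma). Mrps30 was at 7.31 and 5.17 against 76.5 and 63.8 (−3.31 ± 0.22, adjusted p = 8.75e-09, limma). Mrpl20, which binds the large subunit rRNA (chr4:155802878-155809975, plus strand), was at 6.37 and 10.4 against 73.8 and 77.1 (−3.06 ± 0.19, adjusted p = 4.4e-09, limma). None of these genes had overlapping groups, and 2 of them were among the 3 most abundant members in DMSO embryos. Mrpl34 was at 10.96 and 14.5 against 99.3 and 103 (−2.91 ± 0.37) and Mrpl12 at 10.02 and 8.11 against 66.5 and 68.2 (−2.77 ± 0.20). The rises were smaller than the falls. Mrps11 was at 60.1 and 50.5 against 36.5 and 35.5 (0.60 ± 0.18, adjusted p = 0.00859, limma), a call lost without FK228 replicate 1 (0.0827). Mrps5 was at 5.75 and 4.72 against 2.37 and 2.49 (0.86 ± 0.33, adjusted p = 0.0381, limma), and it missed the threshold without any one of the 4 libraries (0.0668 to 0.162); 1 member was called higher without DMSO replicate 1, without DMSO replicate 2 or without FK228 replicate 2. Mrps31 was at 1.19 and 0.991 against 0.340 and 0.145, levels near the filter.

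Of the 38 further translation genes 16 were lower (42.1%) and 1 higher (2.63%) with FK228, where 26.3% of all genes were lower and 31% higher. Tufm, the mitochondrial elongation factor that brings aminoacyl-tRNA to the ribosome, was at 1.70 and 2.19 FPKM against 12.9 and 19.9 (−2.54), and Ddx28 at 2.52 and 4.12 against 21.7 and 21.7 (−2.42). Tsfm, the exchange factor of Tufm, was at 15.99 and 22.1 against 9.18 and 5.97 (1.23), a call lost without DMSO replicate 2 (adjusted p = 0.105, limma) and without FK228 replicate 2 (0.0927).

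The Hdac1, Hdac2 and FK228 comparisons share no library. Of 76 members 17 were lower in all 3, against 3014 of all 17336 genes tested (17.4%). The 17 were Mrpl4, Mrpl12, Mrpl20, Mrpl22, Mrpl34, Mrpl38, Mrpl40, Mrpl43, Mrpl45, Mrpl51, Mrpl54, Mrpl57, Mrps6, Mrps10, Mrps18b, Mrps28 and Mrps30. Of the 23 members lower with mutant Hdac1, 17 (73.9%) were also lower with mutant Hdac2 and 20 (87.0%) with FK228, against 84.3% and 87.8% of all genes lower with mutant Hdac1. Of the 25 lower with mutant Hdac2, 21 (84.0%) were lower with FK228, against 89% of all such genes, and these 21 were 60% of the 35 lower with FK228, against 75.1%. The 20 shared by Hdac1 and FK228 were 57.1% of the 35, against 72.1%, and the 17 shared by Hdac1 and Hdac2 were 68.0% of the 25, against 82.2%. Of the 76 members 3, Mrps5, Mrps11 and Mrps31, were higher in all 3 comparisons, against 21.1% of all genes. Mutant Hdac1 and mutant Hdac2 shared 5 of their 7 higher members each (71.4%), against 81.3% and 80.5% of all genes higher in the first and the second. The 3 higher with FK228 were 42.9% of the 7 higher with mutant Hdac1 and of the 7 with mutant Hdac2, against 75.5% and 79.5% of all genes, and all 3 were higher in both, against 74.3% and 79.1%. A further 25 members were called in none of the 3, against 28.9% of all genes, and 0 members were called in opposite directions. As a description across the 76 members, log2 fold changes of Hdac1 and Hdac2 correlated with r = 0.852, of Hdac1 and FK228 with 0.781, and of Hdac2 and FK228 with 0.809, below the 0.899, 0.848 and 0.896 across all genes; genes are not independent replicates.

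Mrps18a, Mrps18b and Mrps18c are paralogs that descend from 1 bacterial protein: the first sits in the large subunit, the others in the small subunit. Mrps18b (chr17:35910379-35916389, minus strand) was at 4.28 and 4.59 FPKM in Hdac1 mutant and 14.004 and 17.6 in Hdac1 WT late libraries (−1.62 ± 0.30, adjusted p = 0.00026, limma). It was at 3.52 and 3.03 with Hdac2 mutant and 20.3 and 31.2 with Hdac2 WT (−2.62 ± 0.30, adjusted p = 2.25e-06), and at 3.56 and 3.52 with FK228 and 32.7 and 36.2 with DMSO (−2.96 ± 0.30, adjusted p = 4.72e-07). The treated or mutant libraries were below their controls without overlap in each pair of groups; exons of a predicted gene overlap 30.5% of its exon bases.

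Mrps18c (chr5:100798627-100804471, plus strand) went the other way. It was at 9.45 and 15.3 FPKM in Hdac1 mutant and 2.08 and 3.65 in Hdac1 WT late libraries (1.79 ± 0.28, adjusted p = 6.49e-05, limma), and at 13.5 and 14.4 with Hdac2 mutant and 3.50 and 5.15 with Hdac2 WT (1.51 ± 0.28, adjusted p = 0.000291). With FK228 it was at 10.5 and 9.55 and with DMSO at 5.96 and 8.36, which did not pass the test (0.45 ± 0.28, adjusted p = 0.185) although the groups did not overlap. Mrps18a (chr17:46110986-46128910, plus strand) passed in none of the 3, with values of 1.60 and 2.73 in Hdac1 mutant, 2.44 and 4.85 in Hdac1 WT, 1.99 and 2.53 with FK228 and 4.42 and 2.50 with DMSO. After quantile normalization, which moved the median of all genes from 0.17 to about 0 in the Hdac1 comparison, Mrps18a was lower with mutant Hdac1 (−1.03, adjusted p = 0.00877, limma), mutant Hdac2 (−0.80, 0.036) and FK228 (−0.84, 0.0257).

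**Figure D3:**
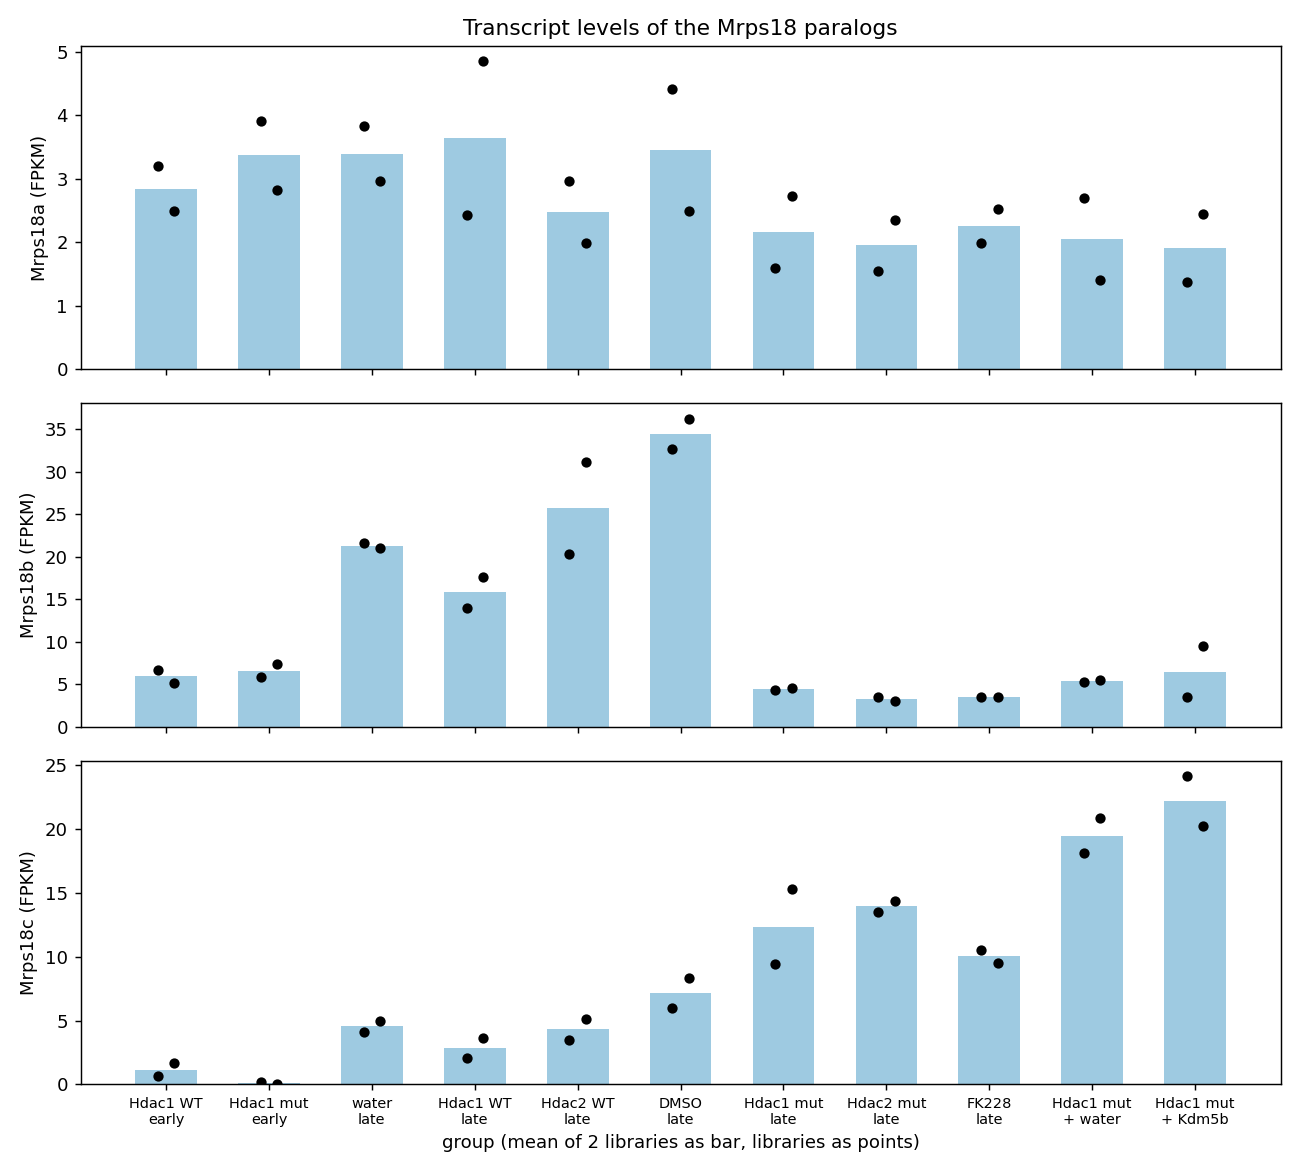
FPKM of Mrps18a, Mrps18b and Mrps18c in each of the 22 mouse libraries (points) with group means (bars), by group. Mrps18b is high in the late control groups and low in the mutant and FK228 groups, Mrps18c is at most 1.66 FPKM in early embryos and highest in the groups injected again with H2O or Kdm5b mRNA, and Mrps18a stays below 5 FPKM in all groups.

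Promoter windows of 250 bases before and 50 after the start were taken from RefSeq (GRCm38.p6) for 68 of the 77 members. They were searched on both strands for 4 short motifs of factors known for housekeeping and mitochondrial genes. CCGGAAG, the core site of ETS factors, was in 24 of 68 members (35.3%) and 9.12% of all 27025 genes with a window. The palindromic site of NRF1 was in 13 (19.1%) and 4.78% of all, and AAGATGGCG, the site of YY1, in 8 (11.8%) and 1.49% of all. CACGTG, an E-box, was in 5 (7.4%) and 7.24% of all. The median log2 fold change with FK228 was −1.20 in the 24 tested members with an ETS match and −0.57 in the 43 without, and −0.21 in the 8 with a YY1 match against −0.75 in the 59 without. For NRF1 they were −1.09 in the 13 with a match and −0.68 in the 54 without, and for the E-box −0.82 in 5 and −0.70 in 62. With mutant Hdac1 these medians, with and without a match, were −0.54 and −0.30 for ETS, 0.08 and −0.45 for YY1, −0.30 and −0.37 for NRF1 and −0.32 and −0.37 for the E-box. These are counts of letters in a window, without a test.

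The windows below show members that moved apart in the Hdac1 comparison. Mrps10 (chr17:47368947-47369246, plus strand) had the third largest fall after Mrpl4 and Mrpl38; Mrps9 (chr1:42850983-42851282, plus), Mrpl27 (chr11:94653541-94653840, plus) and Mrpl3 (chr9:105053018-105053317, plus) had the smallest changes; Mrps18b (chr17:35916391-35916690, minus) and Mrps18c (chr5:100798509-100798808, plus) moved in opposite directions, and Mrps11 (chr7:78782881-78783180, plus) rose. Capitals mark motif matches on either strand: NRF1 in Mrps9, ETS in Mrpl27, Mrpl3 and Mrps18b, the E-box and then ETS in Mrps18c, and YY1 in Mrps11. None of the 4 motifs is in the Mrps10 window. In GENCODE Mrps10 starts at 47368887, before this window, so the bases ahead of that start were not searched. Mrpl4 and Mrpl38 had no window. Mrpl27 and Mrpl3, which hardly moved with mutant Hdac1, hold the same ETS letters as Mrps18b, which was lower, and Mrps18c, which was higher. For Mrpl27 the Hdac1 mutant libraries at 1.83 and 1.94 FPKM lay between the Hdac1 WT libraries at 3.88 and 0.786. It was called lower with mutant Hdac2 and with FK228 (−1.85), and Mrpl3 was called with neither. A part of the motifs in these changes was not tested.
Mrps10: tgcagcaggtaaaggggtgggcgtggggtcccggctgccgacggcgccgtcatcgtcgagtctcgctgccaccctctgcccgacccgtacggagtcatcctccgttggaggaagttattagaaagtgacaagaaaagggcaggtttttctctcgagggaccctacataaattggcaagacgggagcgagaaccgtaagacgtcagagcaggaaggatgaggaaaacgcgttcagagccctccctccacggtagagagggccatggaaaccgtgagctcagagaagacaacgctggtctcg
Mrps9: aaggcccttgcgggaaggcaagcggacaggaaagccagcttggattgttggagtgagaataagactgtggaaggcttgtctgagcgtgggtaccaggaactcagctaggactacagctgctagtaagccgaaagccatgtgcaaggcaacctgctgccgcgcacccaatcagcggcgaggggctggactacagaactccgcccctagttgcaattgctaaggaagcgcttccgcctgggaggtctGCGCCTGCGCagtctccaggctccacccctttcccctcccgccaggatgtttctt
Mrpl27: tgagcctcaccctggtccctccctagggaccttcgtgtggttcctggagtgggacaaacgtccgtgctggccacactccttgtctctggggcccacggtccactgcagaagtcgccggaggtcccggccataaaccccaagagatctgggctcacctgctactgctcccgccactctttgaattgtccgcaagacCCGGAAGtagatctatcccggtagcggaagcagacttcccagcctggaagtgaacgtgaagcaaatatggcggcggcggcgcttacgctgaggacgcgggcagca
Mrpl3: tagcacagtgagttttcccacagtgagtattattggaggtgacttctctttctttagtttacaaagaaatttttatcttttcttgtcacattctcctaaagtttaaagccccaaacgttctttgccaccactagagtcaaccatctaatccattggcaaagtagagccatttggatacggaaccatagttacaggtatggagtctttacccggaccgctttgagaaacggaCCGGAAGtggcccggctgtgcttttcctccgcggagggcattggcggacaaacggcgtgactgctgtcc
Mrps18b: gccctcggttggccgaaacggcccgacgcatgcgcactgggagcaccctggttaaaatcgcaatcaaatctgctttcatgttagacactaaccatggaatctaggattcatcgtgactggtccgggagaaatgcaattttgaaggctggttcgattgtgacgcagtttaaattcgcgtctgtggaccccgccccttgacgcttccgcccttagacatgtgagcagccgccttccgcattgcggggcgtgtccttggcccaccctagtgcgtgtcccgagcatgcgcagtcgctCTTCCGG
Mrps18c: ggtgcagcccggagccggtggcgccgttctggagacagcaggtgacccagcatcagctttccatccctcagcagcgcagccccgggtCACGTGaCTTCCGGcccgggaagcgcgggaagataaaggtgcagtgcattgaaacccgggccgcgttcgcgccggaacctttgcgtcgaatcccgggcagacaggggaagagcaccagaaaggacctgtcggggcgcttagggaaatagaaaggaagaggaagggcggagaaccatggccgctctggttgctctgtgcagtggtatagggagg
Mrps11: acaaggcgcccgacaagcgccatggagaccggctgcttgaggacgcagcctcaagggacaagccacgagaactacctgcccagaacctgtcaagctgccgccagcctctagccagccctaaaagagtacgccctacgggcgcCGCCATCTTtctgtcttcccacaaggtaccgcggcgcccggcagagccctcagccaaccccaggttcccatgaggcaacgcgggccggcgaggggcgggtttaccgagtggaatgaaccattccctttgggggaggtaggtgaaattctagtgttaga

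Between 24 h and 36 h some members were higher and others lower, with large changes both ways. In Hdac1 WT embryos 31 of 76 were higher and 17 lower at the late stage, where 28.8% of all genes were higher and 28.1% lower, with a member median of 0.39 and an all-gene median of 0.00. Of mitochondria-specific large subunit proteins 9 of 21 were higher and 2 lower (median 0.91), and of bacterial-type small subunit proteins 8 of 16 were higher and 4 lower (median 0.59). Bacterial-type large subunit proteins had 10 of 27 higher and 5 lower, and mitochondria-specific small subunit proteins 4 of 10 higher and 5 lower, with a median of −0.86.

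Mrps23 (chr11:88204388-88211507, plus strand) was at 147 and 137 FPKM in early and 4.81 and 18.5 in late Hdac1 WT libraries (−3.75 ± 0.47, adjusted p = 3.95e-06, limma). Mrpl24 (chr3:87919506-87923672, plus strand), with 26.3% of its exon bases overlapping Rrnad1 on the opposite strand, was at 65.4 and 61.1 early and 6.78 and 11.1 late (−2.72 ± 0.22). Mrpl3 was at 61.3 and 48.3 early and 14.3 and 8.79 late (−2.18 ± 0.25). These transcripts were abundant at 24 h and lower at 36 h, without overlap. The opposite held for Mrpl20, at 2.22 and 2.38 early and 48.5 and 56.9 late (4.02 ± 0.19, adjusted p = 8.65e-11, limma), for Mrpl12, at 4.40 and 2.89 and 47.4 and 41.9 (3.31 ± 0.20), and for Mrps6, at 2.94 and 1.75 and 31.7 and 25.9 (3.17 ± 0.36). Mrps18b was higher late (1.27 ± 0.30), and Mrps18c, at 0.626 and 1.66 early and 2.08 and 3.65 late (0.86 ± 0.28), was called but lost without early Hdac1 WT replicate 1 (adjusted p = 0.209, limma) and without late Hdac1 WT replicate 2 (0.165). Of the 38 further translation genes 11 were higher (28.9%) and 10 lower (26.3%), near the 28.8% and 28.1% of all genes. Noa1, a GTPase of small subunit assembly, was at 5.24 and 4.11 early and 59.4 and 57.1 late (3.39), Tufm at 0.897 and 0.692 and 10.8 and 9.58 (2.64), and Nsun4, an rRNA methyltransferase, at 54.7 and 48.95 and 10.2 and 10.3 (−2.23).

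The stage comparison shares no library with the Hdac2 and FK228 comparisons, but its tests used the same estimate of spread per gene. Of the 31 members that were higher late, 22 (71.0%) were lower with FK228, against 62.8% of all genes that were higher late, and 15 (48.4%) were lower with mutant Hdac2, against 53.1%. Of the 17 that were lower late, 2 (11.8%) were lower with FK228, against 9.64% of all such genes, and 4 (23.5%) with mutant Hdac2, against 10.6%. Of the 28 not called between stages, 11 (39.3%) were lower with FK228, against 12.8% of all such genes, and 6 (21.4%) with mutant Hdac2, against 9.08%. Across members the stage and FK228 log2 fold changes correlated with r = −0.48, and across all genes with r = −0.47, given as a description.

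**Figure D4:**
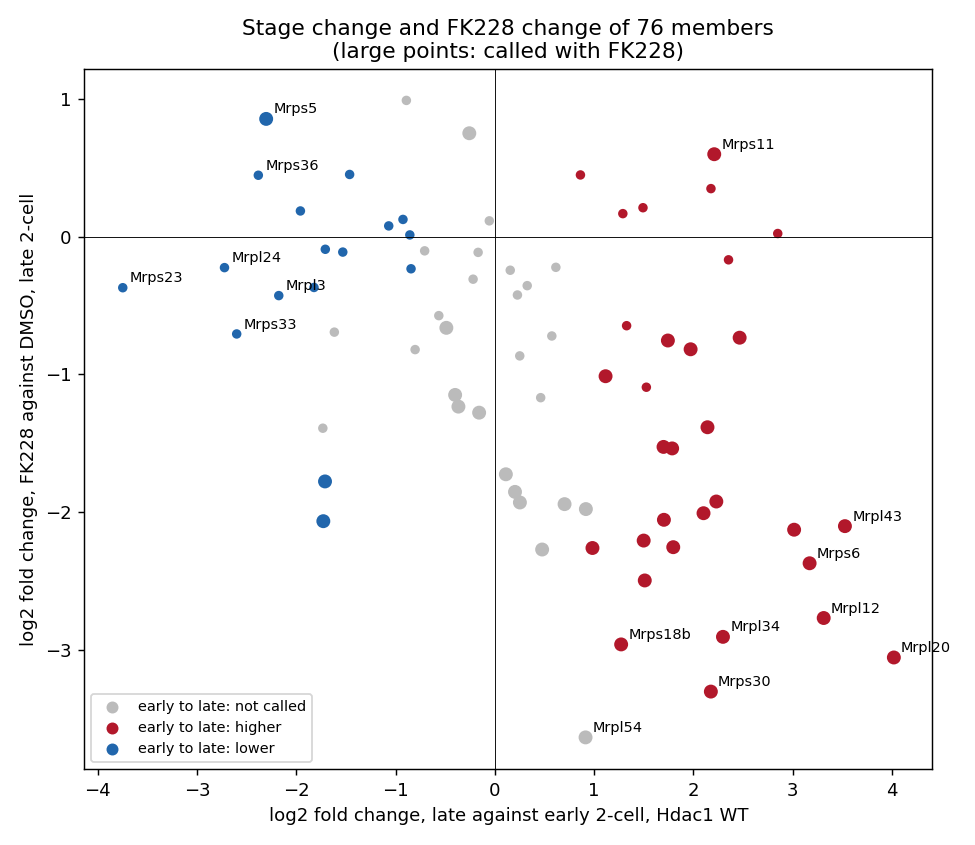
log2 fold change of each tested member from early to late in Hdac1 WT embryos (x) against FK228 over DMSO (y), both on the log2(FPKM + 1) scale. Mrpl20 and Mrpl12 lie at the far right and low, Mrps11 to the right and above 0, and Mrps23 and Mrpl24 at the far left just below 0; large points were called with FK228 and colours mark the stage call.

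Hdac1 mutant embryos also changed between the stages, with 26 members higher and 25 lower late, where 40.6% of all genes were higher and 25.8% lower, and a member median of −0.25 against 0.37 for all genes. After quantile normalization the split was 20 higher and 38 lower. Mrps23 was at 144 and 189 early and 6.70 and 8.42 late (−4.28 ± 0.47). Mrps18c rose from 0.184 and 0 to 9.45 and 15.3 FPKM (3.58 ± 0.28) and Mrps11 from 2.52 and 1.66 to 34.1 and 41.01 (3.65 ± 0.18), while Mrps18b stood at 5.82 and 7.34 and 4.28 and 4.59 and did not pass (−0.47 ± 0.30). At 24 h itself 0 members were called between Hdac1 mutant and WT (limma), where 0.231% of all genes were higher and 0.329% lower. At an unadjusted p under 0.05 there were 4 of 76 members, 2 each way, against 6.1% of all genes. Mrps18c then was at 0.184 and 0 against 0.626 and 1.66, below the threshold (−0.94 ± 0.28, adjusted p = 0.25, limma), and was called lower with a pseudocount of 0.1 (−2.75, adjusted p = 0.0071).

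The effect of mutant Hdac1 was tested for a difference between the stages, with 17 members more negative and 5 more positive late than early, where 15.2% of all genes were more negative and 21.2% more positive. After quantile normalization these were 23 and 3, and 3 members were more positive without early Hdac1 mutant replicate 2 or without early Hdac1 WT replicate 1. Mrpl38 had a difference of −2.51 ± 0.53, Mrps10 of −2.30 ± 0.50, Mrpl4 of −2.23 ± 0.39 and Mrps18b of −1.75 ± 0.42. Mrps18c (2.72 ± 0.40, adjusted p = 8.83e-05, limma), Mrps5 (2.57 ± 0.47) and Mrps36 (1.93 ± 0.58), whose protein belongs to a dehydrogenase complex more than to the ribosome, were more positive late. Mrps36 missed the threshold without early Hdac1 mutant replicate 2 (adjusted p = 0.0669, limma), early Hdac1 WT replicate 1 (0.0509) or late Hdac1 WT replicate 1 (0.0748).

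Few members were called between embryos injected with WT mRNA and with H2O. The members summed to 1021 to 1027 FPKM in Hdac1 WT libraries, below the 1257 to 1287 in H2O libraries without overlap. In Hdac2 WT libraries they summed to 1183 to 1424, which overlapped H2O. With Hdac1 WT 1 member was higher and 1 lower, where 0.352% of all genes were higher and 1.83% lower. At an unadjusted p under 0.05 (limma) there were 16 of 76 members, 15 of them lower. In either direction 15.8% of all genes reached that level, and their median log2 fold change was −0.05. Mrpl17 was at 19.6 and 19.04 FPKM with Hdac1 WT and 7.05 and 10.7 with H2O (1.07 ± 0.21, adjusted p = 0.0181, limma), and Mrps23 at 4.81 and 18.5 and 33.3 and 68.7 (−2.20 ± 0.47, adjusted p = 0.0246). Mrpl17 was lost without H2O replicate 1 (0.117) or Hdac1 WT replicate 1 (0.0768), Mrps23 without H2O replicate 2 (0.124) or Hdac1 WT replicate 1 (0.165), and 3 members were called lower without H2O replicate 1 and 4 without Hdac1 WT replicate 2. With Hdac2 WT 2 members were higher and 1 lower, where 6.59% of all genes were higher and 2.86% lower. Mrpl17 was again higher, at 18.9 and 25.8 (1.25 ± 0.21, adjusted p = 0.00156, limma), the H2O libraries being the same. Mrpl41, at 58.9 and 47.6 against 32.5 and 30.6 (0.73 ± 0.21, adjusted p = 0.0393), missed the threshold without any one of the 4 libraries (0.0697 to 0.229). Mrpl3, at 6.79 and 10.02 against 14.6 and 19.2 (−0.94 ± 0.25, adjusted p = 0.0261), did so without H2O replicate 2 (0.146) or Hdac2 WT replicate 1 (0.206), and 3 members were lower without H2O replicate 1 and 2 without H2O replicate 2. Without H2O replicate 1 or Hdac2 WT replicate 2, 1 member was higher.

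Kdm5b mRNA after mutant Hdac1 was compared with H2O after mutant Hdac1, and 0 members were called (limma). Of all genes 0.415% were higher and 0.629% lower. At an unadjusted p under 0.05 there were 5 of 76 members, 4 higher and 1 lower, against 14.9% of all genes. The member median was 0.19. Both second-injection groups share the H2O-only embryos as control. Against these, mutant then H2O gave 23 of 76 members lower and 9 higher, where 18.1% of all genes were lower and 34.5% higher. Mutant then Kdm5b gave 16 of 76 lower and 12 higher, where 15.2% of all genes were lower and 29.3% higher. With median-ratio scaling the splits were 26 lower and 5 higher, and 25 lower and 8 higher. Without mutant then H2O replicate 1 there were 13 lower and without its replicate 2 there were 5 higher; without mutant then Kdm5b replicate 1 there were 8 lower and without its replicate 2 there were 7 higher. The 8 blood markers summed to 132 to 144 FPKM after mutant then H2O, 89.3 to 98.0 after mutant then Kdm5b and 4.77 to 5.60 with H2O alone.

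Mrps18b was at 5.25 and 5.55 FPKM after mutant then H2O, 3.47 and 9.54 after mutant then Kdm5b and 21.6 and 20.98 with H2O alone (−1.80 ± 0.30 and −1.70 ± 0.30). Mrps18c was at 18.1 and 20.9, 24.1 and 20.2 and 4.11 and 4.98 (1.89 ± 0.28 and 2.06 ± 0.28). Both second-injection groups stood on the same side of the H2O libraries for each gene, low for Mrps18b and high for Mrps18c. Mrps11 was at 54.7 and 60.2, 53.99 and 59.2 and 17.3 and 17.7, and Mrpl46 at 43.7 and 57.9, 44.3 and 58.95 and 17.4 and 18.5, both called higher in each. Mrpl4 was at 11.7 and 16.9 after mutant then H2O (−1.75 ± 0.27) and 19.5 and 26.4 after mutant then Kdm5b, with H2O alone at 56.5 and 43.8. Mrpl40 was at 12.4 and 13.9 and 13.9 and 17.8 against 36.1 and 46.6 (−1.57 ± 0.34 and −1.33 ± 0.34), again below the H2O libraries in both groups. Of the 38 further translation genes 5 were lower (13.2%) and 6 higher (15.8%) after mutant then H2O, and 3 lower (7.89%) and 5 higher (13.2%) after mutant then Kdm5b, all below the shares of all genes; Mpv17l2, a ribosome assembly protein, was at 17.3 and 28.7 and 20.6 and 33.96 against 5.91 and 9.25 (1.47 and 1.71).

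No member passed the test for a difference in effect between mutant Hdac1 and mutant Hdac2 (0 called, limma). Of all genes 0.0404% were more positive and 0.0635% more negative with Hdac1. At an unadjusted p under 0.05 there were 8 of 76 members, against 9.56% of all genes. Mrps18b had a difference of 0.996 ± 0.42 (adjusted p = 0.456, limma). Between mutant Hdac1 and FK228, 7 members were more positive and 0 more negative with Hdac1, where 4.76% and 2.2% of all genes were, and the fit of only the groups compared called 0. Leaving out DMSO replicate 1 left 1, DMSO replicate 2 or FK228 replicate 2 left 3 and Hdac1 mutant replicate 2 left 4. Mrpl28, Mrpl13 and Mrpl44 led with 2.04 ± 0.54, 1.89 ± 0.49 and 1.58 ± 0.38, and each missed the threshold without DMSO replicate 1 (adjusted p = 0.125, 0.0786 and 0.0671, limma) and without several other libraries. Mrps18c had 1.34 ± 0.40 (adjusted p = 0.0554), and was called with the replicate block (0.0336).

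In bovine 8/16-cell embryos 39 of 78 members (50%) were lower and 3 higher with FK228, where 27.4% of all genes were lower and 22.2% higher, with a member median of −0.55 against 0.06 for all genes. The summed level was 2425 ± 14.6 FPKM with DMSO and 1760 ± 19.3 with FK228 (SD, n = 2). Lower members came from all 4 classes: 15 of 29 bacterial-type and 9 of 21 mitochondria-specific large subunit proteins, and 8 of 16 and 6 of 10 of the small subunit. The 9 bovine 8/16-cell markers summed to 1129 to 1155 FPKM with FK228 against 1197 to 1236 with DMSO, the 7 oocyte markers found to 837 to 857 against 635 to 715, the 6 sperm markers found to 4.43 to 8.06 against 0.24 to 1.14, and the 3 blood markers found to at most 0.79.

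MRPL12 was at 1.59 and 1.99 FPKM with FK228 and 23.4 and 20.5 with DMSO (−3.04 ± 0.21, adjusted p = 3.88e-05, limma). MRPL1, the protein of the stalk that guards tRNA exit, was at 3.09 and 3.23 against 27.6 and 26.6 (−2.76 ± 0.19), and MRPL50 at 0.896 and 0.726 against 8.51 and 8.78 (−2.41 ± 0.21). The groups did not overlap for any of these. MRPS18B was at 19.7 and 22.02 against 47.03 and 39.7 (−1.02 ± 0.18) and MRPS18C at 27.6 and 18.7 against 77.3 and 53.8 (−1.47 ± 0.24), so both were lower in cattle. MRPL11, at 31.1 and 35.8 against 16.95 and 22.8 (0.73 ± 0.20, adjusted p = 0.0156, limma), was higher but missed the threshold without DMSO replicate 1 (0.113); 1 member in all was called higher without that library. MRPL14 and MRPS6 were called higher at adjusted p = 0.0406 and 0.0454 (limma); MRPL14 was lost without DMSO replicate 2 or FK228 replicate 1 (0.196 and 0.18), and MRPS6 without DMSO replicate 1, DMSO replicate 2 or FK228 replicate 2 (0.109 to 0.289). Of 39 further translation genes 19 were lower (48.7%) and 4 higher (10.3%); TUFM was at 26.4 and 24.9 against 102 and 80.3 (−1.78) and MPV17L2 at 10.98 and 13.1 against 2.33 and 4.37 (1.62).

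The mouse and bovine tables were normalized separately, and the FK228 comparisons share no library. Of 76 members matched by symbol 22 were lower in both, which is 62.9% of the 35 lower in mouse and 56.4% of the 39 lower in cattle, against 45.2% and 54.6% over all 9850 matched genes. Mrpl12, Mrpl50 and Mrps18b were among them. Mrpl4, Mrpl20, Mrpl54 and Mrps30, among 12 members lower in mouse, were not called in cattle. Mrpl1, Mrps18c and Mrps23, among 16 lower in cattle, were not called in mouse. Mouse Mrpl1 was at 0.585 and 0.244 FPKM with FK228 and 0.158 and 0.669 with DMSO. At such levels a fall could hardly be seen. These differences between species were not tested. With 100 genes changed by each size in simulated data, the bovine fit of 4 libraries recovered 18% of 2-fold and 68% of 4-fold changes. Far more genes were called in the real bovine comparison, so these shares do not give its recovery. Mrps6 was called lower in mouse and higher in cattle, and Mrps5 the reverse. The bovine MRPS6 rise missed the threshold with no filter or with median-ratio scaling. The mouse Mrps5 rise missed it with a pseudocount of 0.1, with no filter or with quantile normalization. Both rises also depended on single libraries, as given above. The log2 fold changes correlated across members with r = 0.071 (rho = 0.124) and across all matched genes with r = 0.363, as a description.

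**Figure D5:**
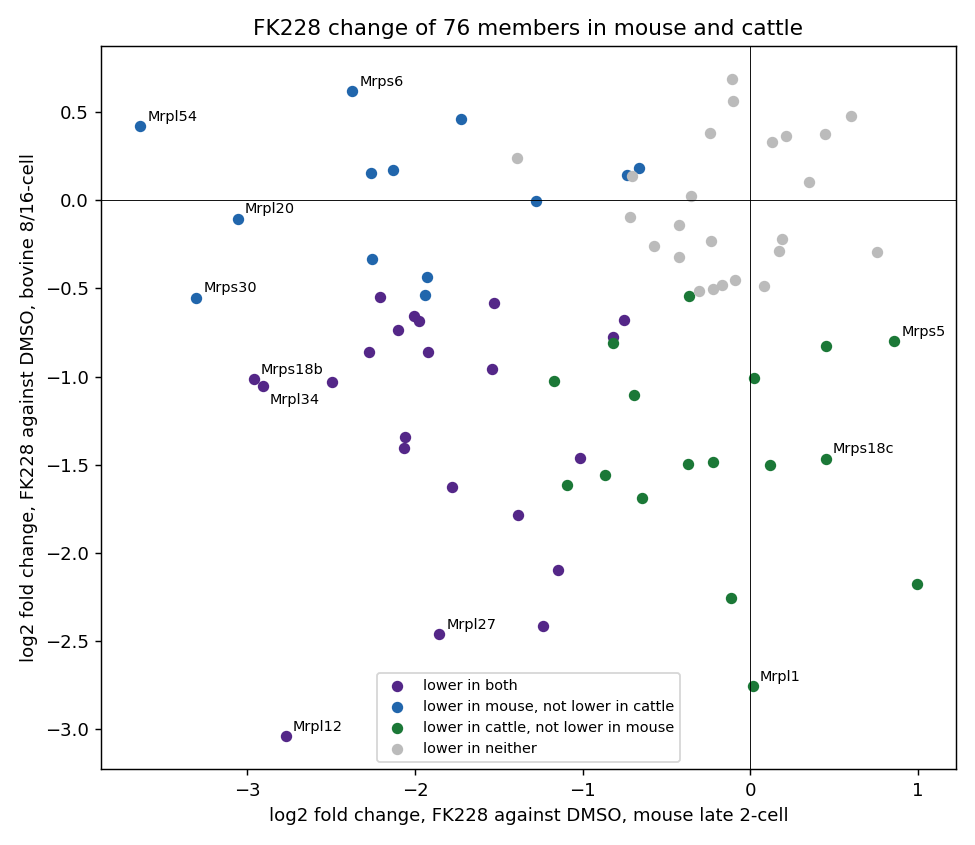
log2 fold change with FK228 of each matched member in mouse late 2-cell (x) and bovine 8/16-cell embryos (y), both on the log2(FPKM + 1) scale. Colours mark members lower in both species, in 1 or in neither. Mrpl12 is low in both, and Mrps30 low in mouse and nearer 0 in cattle. Mrpl1 is low in cattle and near 0 in mouse, where it was below 1 FPKM with DMSO and with FK228.

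The mRNAs of the mitochondrial genome, which this ribosome translates, were measured in the same libraries. Of 13 such mRNAs 0 were called with mutant Hdac1, mutant Hdac2 or FK228 against their own controls in late embryos (limma; 0 at an unadjusted p under 0.05 in each; medians −0.03, 0.13 and 0.10). After mutant Hdac1 then H2O, against H2O alone, 1 was called higher and 6 were higher at an unadjusted p under 0.05 (median 0.33). After mutant then Kdm5b 0 were in either count (median 0.07). The shares of all genes at that unadjusted p, both ways, were 57.2% and 51%. Of the 13, 12 were higher late than early at an unadjusted p under 0.05 (limma) in both Hdac1 WT and Hdac1 mutant embryos (medians 0.90 and 0.95). Of all genes, 60.4% and 69% reached that level, both ways. Cytosolic ribosomal protein genes were in lists added after the files were seen. With mutant Hdac1 70 of 82 were lower (85.4%, median −1.40), with mutant Hdac2 72 (87.8%, −1.53) and with FK228 78 (95.1%, −2.11). In cattle 65 of 78 were lower (83.3%, −1.01). The shares of all genes lower were 21.6%, 22.2%, 26.3% and 27.4%. In Hdac1 WT embryos 77 of the 82 were higher late than early (median 2.69), where 28.8% of all genes were. Of 72 nuclear-encoded respiratory chain genes 21 were lower (29.2%) and 13 higher (18.1%) with mutant Hdac1, 30 (41.7%) and 12 (16.7%) with mutant Hdac2 and 39 (54.2%) and 5 (6.94%) with FK228; 30.5%, 30.8% and 31% of all genes were higher. Of 17 genes of mitochondrial transcription and RNA handling, 6 were lower (35.3%) and 4 higher (23.5%), 7 (41.2%) and 3 (17.6%), and 10 (58.8%) and 5 (29.4%) in the same comparisons.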

How the data were processed

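PolyA RNA of 26 libraries, 22 from mouse and 4 from cattle, was analysed with 2 libraries in each group; the labels gave the groups, times and doses. The authors deposited FPKM per gene and library, 1 table per species. Tools named by the submitters' processing notes were DESeq2, Cufflinks, featureCounts, HISAT2 and Trimmomatic, with builds GRCm38 and ARS-UCD1.2; neither versions nor roles are stated. No count model was fitted here, since FPKM are not counts. Sequencing depth is unknown from FPKM, and no counting intervals were computed. Because FPKM are relative to a library's total, abundant genes that change shift all others.

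Genes with at least 1 FPKM in at least 2 libraries were tested as log2(FPKM + 1), a scale that understates changes of low genes, with limma 3.58.1 in R 4.3.3, in 1 fit of the 22 mouse libraries (11 residual degrees of freedom) and 1 of the 4 bovine libraries (2), with a variance trend. Tests were two-sided, adjusted by Benjamini-Hochberg over all genes of a comparison, with calls at an adjusted p under 0.05. In all, 12 pairs of groups and 3 differences of effects were tested. Simulated data had 100 genes changed by 2-fold and 100 by 4-fold, chosen among genes of higher level. On them the comparison of Hdac1 mutant with WT at the late stage, over 17336 genes, recovered 75% of 2-fold and 97% of 4-fold changes. The bovine comparison of FK228 with DMSO, over 12590 genes, recovered 18% and 68%. Far more genes were called in the real data, where recovery was not measured.

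The members and lists were chosen with earlier results of these data known. Named members were up to 12 lower and 6 higher in the Hdac1 comparison, 6 and 4 in the others and 3 each way in differences, by size of change among calls without overlap and with the higher group at 5 FPKM or more on average. Mrps18a, Mrps18b and Mrps18c were named throughout, with up to 4 further translation genes each way; the text gives a selection of the named genes. Mrps31, named for its part in a count of 3, and the Mrps11 and Mrpl46 pair in all comparisons were chosen after values were seen. Alternatives were a pseudocount of 0.1, a minimum of 5 FPKM, no filter, median-ratio and quantile scaling, only the groups compared, a replicate block and leaving out each library. Gene positions are from GENCODE on GRCm38. Replicate numbers were checked for pairing over 55 pairs of groups. Python 3.11.15, pandas 2.3.3 and matplotlib 3.10.9 were used for tables and plots.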

Additional observations from a re-analysis of the deposited data

Results flagged for a closer look

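The results here were picked because a test of the difference between 2 effects passed. The effect of mutant Hdac1 differed between the late and the early 2-cell stage in 17 members that were more negative late and 5 that were more positive late. The differences were −2.51 for Mrpl38, −2.30 for Mrps10, −2.23 for Mrpl4 and −1.75 for Mrps18b on the log2 scale. They were 2.72 for Mrps18c, 2.57 for Mrps5 and 1.93 for Mrps36. The effect of mutant Hdac1 differed from that of FK228 in 7 members, all more positive with mutant Hdac1, among them Mrpl28 with 2.04, Mrpl13 with 1.89 and Mrpl44 with 1.58.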

How the results depend on the processing

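Of 352 alternative values over 30 results, counts of members called, 297 stayed within 1.5 times the main count and 55 did not. Where no cause is named it was not tested. With only the groups compared in the fit, and so fewer libraries, members lower were 12 with mutant Hdac1, 14 after mutant then H2O, 9 after mutant then Kdm5b and 11 in the stage difference, 0 were higher and 0 lower with Hdac1 WT or Hdac2 WT against H2O, and 0 were more positive with mutant Hdac1 than with FK228. A pseudocount of 0.1 gave 1 higher with FK228, 1 lower with mutant Hdac1 early and 2 lower with Hdac1 WT. No filter gave 1 higher with FK228, 0 lower with Hdac1 WT, 1 higher with Hdac2 WT and 0 higher in cattle. Median-ratio scaling gave 1 higher and 2 lower with Hdac2 WT, 5 higher after mutant then H2O, 25 lower after mutant then Kdm5b, 4 in the difference of mutant Hdac1 and FK228 and 1 higher in cattle. Quantile normalization gave 1 lower with mutant Hdac1 early, 38 lower late in Hdac1 mutant embryos, 0 lower with Hdac1 WT, 1 higher with Hdac2 WT, 3 more positive in the stage difference and 7 higher in cattle; a minimum of 5 FPKM gave 3 lower with Hdac2 WT.

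Leaving out 1 library gave 19 to 25 lower and 7 to 9 higher with mutant Hdac1, 18 to 23 and 4 to 6 with mutant Hdac2, 31 to 35 and 1 to 2 with FK228, 13 to 17 and 26 to 30 late in Hdac1 WT, and 21 to 23 and 23 to 24 late in Hdac1 mutant embryos. It gave 0 to 4 and 0 to 1 with Hdac1 WT, 0 to 3 and 1 to 2 with Hdac2 WT, 13 to 23 and 5 to 11 after mutant then H2O, 8 to 15 and 7 to 14 after mutant then Kdm5b, 12 to 20 and 3 to 5 in the stage difference, 1 to 10 higher in the difference of mutant Hdac1 and FK228, and 32 to 37 lower and 1 to 4 higher in cattle. A lone library was taken to vary like the other groups. Correlations of deviations between libraries of equal replicate number ran from −0.0893 to 0.175 over 55 pairs of mouse groups, with 3 over 0.1. In cattle the value was 0.233. These values cannot show whether equal numbers share a culture or batch, which the labels do not state. With a replicate block 7 members were higher and 23 lower with mutant Hdac1, 3 and 35 with FK228, 31 and 18 late in Hdac1 WT, and 4 and 42 in cattle, all within 1.5 times the main counts. FPKM keep no depth, so the precision of low values is unknown.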

Other observations

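Mrpl11, the member that did not reach the filter in mouse, lay between 0.0733 and 0.892 FPKM over the 22 mouse libraries, while MRPL11 lay at 16.95 and 22.8 FPKM in the bovine DMSO and 31.1 and 35.8 in the bovine FK228 libraries; the tables were normalized separately. Mrpl52 was listed at 0 in both late Hdac1 mutant libraries and at 2.13 and 0.985 in the Hdac1 WT libraries. Mrps31 was listed at 0 in both Hdac2 WT libraries and at 0.731 and 1.06 in the Hdac2 mutant libraries.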
